A study of Mus musculus with 12 samples.

Results

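RNA of 10 nuclear genes whose proteins copy, transcribe, package or turn over mitochondrial DNA (mtDNA) was examined in cultured mouse proximal tubule (PT) cells. The genes were Tfam, Polg, Polg2, Twnk, Ssbp1, Polrmt, Tfb1m, Tfb2m, Mgme1 and Lonp1. They were chosen by name, and each was followed on its transcript with the highest total count. They were 10 of the 25514 genes to which deposited transcripts could be matched, and all 10 passed the filter on low counts.

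mtDNA is a small circular genome in the mitochondrial matrix that encodes a few subunits of the respiratory chain, and the proteins needed to copy and read it are imported from the cytosol. Twinkle (Twnk) unwinds the circle, the single-strand binding protein Ssbp1 covers the opened strand, DNA polymerase gamma (catalytic subunit Polg, accessory subunit Polg2) copies it, and the nuclease Mgme1 trims single-stranded ends. The RNA polymerase Polrmt makes both transcripts and replication primers. It starts with the help of Tfam, which also packages mtDNA into nucleoids, and of Tfb2m, whereas the related Tfb1m methylates mitochondrial ribosomal RNA. Lonp1 is the matrix protease that degrades Tfam among other proteins. PT cells are rich in mitochondria because reabsorption depends on oxidative phosphorylation.

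The cells came from male mice that carried floxed Tgfbr2 alleles (Tgfbr2fl/fl; Tgfbr2 encodes TβRII, the TGF-β type II receptor) together with H2ts6, the Immorto-mouse transgene for a temperature-sensitive T antigen, which all 4 groups share. TβRIIflox/flox PT cells kept the receptor gene, and TβRII-/- PT cells (H2ts6;Tgfbr2-/-) were made from them in culture with an adenovirus that expresses Cre. Both were grown at 33 °C in medium with 2.5% serum and interferon gamma and moved to 37 °C 5 days before the experiment. Interferon gamma was taken out of the medium at that move, by the study's methods. The groups were untreated TβRIIflox/flox cells and untreated TβRII-/- cells in normal culture medium, and both genotypes after 24 h of H2O2 in serum-free medium, with 3 libraries each. By the study's methods serum was withdrawn 24 h before H2O2 was added. The labels give the dose as 200 mM and the study's methods as 200 μM.

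No source used here describes more than 1 line per genotype. The genotype tests therefore measure the spread between libraries of these cultures, and loss of TβRII cannot be told apart from other differences between the lines. Treated cells differed from untreated ones by both peroxide and serum withdrawal, which cannot be told apart either. Gene totals were between 15870144 and 20857609 counts per library. Of 11 PT markers 8 reached 10 counts in some library, among them Lrp2 and Aqp1, whereas Hnf4a and Slc34a1 had at most 2 counts in each library and Slc22a6 had 0. The summed PT markers ranged from 36534 to 45800 counts in untreated TβRIIflox/flox cells and from 21271 to 22507 in untreated TβRII-/- cells. Of markers of leukocytes, endothelium, distal segments and fibroblasts, between 1 and 2 per list reached 10 counts. The summed endothelial markers, nearly all Kdr, went from between 116 and 131 counts to between 475 and 558, while Pecam1, Cdh5 and Emcn had at most 4 counts in each library. The distal markers, nearly all Scnn1a, went from between 37 and 64 to between 262 and 300 counts, with Aqp2 and Calb1 at 0. The leukocyte markers, nearly all Cd68, went from between 120 and 138 to between 221 and 269, with Adgre1 and Cd3e at 0, and the fibroblast markers from between 12 and 22 to between 7 and 10. The part of these shifts in the genotype results was not tested. The Tgfbr2 transcript still had between 6485 and 6895 counts in untreated TβRII-/- cells against between 7032 and 8791 in untreated TβRIIflox/flox cells, and a count over the whole transcript does not separate the floxed piece from the rest, so it does not check the genotype label. By the study's methods the deletion was verified with immunoblots and RNA sequencing.

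The genes lie on 8 chromosomes of GRCm38.p6. Tfam (chr10:71225468-71238328, transcript ENSMUST00000092430) and Polrmt (chr10:79736125-79746604) share chromosome 10, and Tfb1m (chr17:3519250-3557796) and Lonp1 (chr17:56614297-56626903) share chromosome 17. The others are Polg (chr7:79446231-79467911, transcript ENSMUST00000073889), Polg2 (chr11:106768204-106779537), Twnk (chr19:45005663-45012764), Ssbp1 (chr6:40471414-40481823), Tfb2m (chr1:179528052-179546305) and Mgme1 (chr2:144270904-144281227).

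Nuclear genes for mitochondrial proteins are known for binding sites of the factors GABP (also called NRF-2), NRF1, YY1 and Sp1 in their promoters. In the RefSeq promoter windows of GRCm38.p6, from 250 bases before to 50 bases after each annotated start, the GABP core CCGGAAG was present on either strand in 6 of the 10 genes, against 9.93% of 27025 genes with a window. Those 27025 include genes that did not pass the filter on low counts, as only 12971 were tested. For no motif was the share among tested genes taken. The sequences around each match are shown because they set genes whose RNA moved in opposite directions side by side. Each runs 5′ to 3′ along the gene's strand, with the core in capitals, as CTTCCGG where it lies on the other strand. Distances are to the transcript start on which the window is built. That start is the outer end of the gene in Polg2, but lies inside the gene limits given above by 284 bases in Tfam, 1638 in Polg, 54 in Ssbp1 and 23 in Polrmt. Twnk has 2 windows, and both of its matches are in the one whose start is 895 bases inside.
Tfam (chr10:71238075-71238101, minus strand, core from 47 bases before the window's transcript start): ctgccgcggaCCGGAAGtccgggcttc
Polg (chr7:79466295-79466321, minus strand, 38 bases before): aggacctcacCCGGAAGtccctctgca
Polg2 (chr11:106779550-106779576, minus strand, 29 bases before): gggtgacgctCTTCCGGgggcgtggtc
Twnk (chr19:45006438-45006464, plus strand, 110 bases before): taaccggtgaCTTCCGGttccggggtt
Twnk (chr19:45006482-45006508, plus strand, 66 bases before): gagagttttgCTTCCGGagtcaccgcg
Ssbp1 (chr6:40471411-40471437, plus strand, 47 bases before): gctccgtgcgCCGGAAGcgagccgctg
Polrmt (chr10:79746608-79746634, minus strand, 43 bases before): cctaagagcgCTTCCGGcagtcgcaga

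Short cores of the other motifs were also searched on both strands. The NRF1 core TGCGCA was found in 3 members, Polrmt, Tfb2m and Lonp1, and in 8.79% of all genes, and the YY1 core AAGATGG in 1 member, Mgme1, and in 7.28% of all genes. The Sp1 box GGGCGG was found in 7 members and in 38.2% of all genes. In the members 0 matches of 1 motif overlapped a match of another. A match is a description of these letters and not a site shown to be bound.

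Levels on the transcripts used differed widely within the set. Scaled to transcript length and depth (CPM per kilobase), Lonp1 was the highest in every group, at 31.0 ± 1.18 in untreated TβRIIflox/flox cells (SD, n = 3). Polg2 was the lowest in every group, at 1.91 ± 0.380 in the same cells. The 4 genes after Lonp1 in untreated TβRIIflox/flox cells were Polg (12.02 ± 1.18), Twnk (11.7 ± 1.19), Polrmt (11.6 ± 1.45) and Ssbp1 (10.5 ± 0.219), and each overlapped the next one in that order. Mgme1 (6.84 ± 0.483) and Tfam (6.31 ± 0.532) overlapped each other and lay below them, and Tfb2m (3.37 ± 0.381) overlapped Tfb1m (2.91 ± 0.296). In untreated TβRII-/- cells Polg stood at place 5 with 9.61 ± 0.252, next above Mgme1 at 9.03 ± 0.232 and Tfam at 8.91 ± 0.670. This order depends on the length of the transcript used. The Ssbp1 transcript used has 4913 bases, and another of 1126 bases, which shares reads with it, had 89.6% as many counts. For Polg the lengths are 7842 and 4589 bases, with 91.9% as many counts. On such shorter forms the levels per kilobase would be higher, so the order is not read as one of genes.

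**Figure D1:**
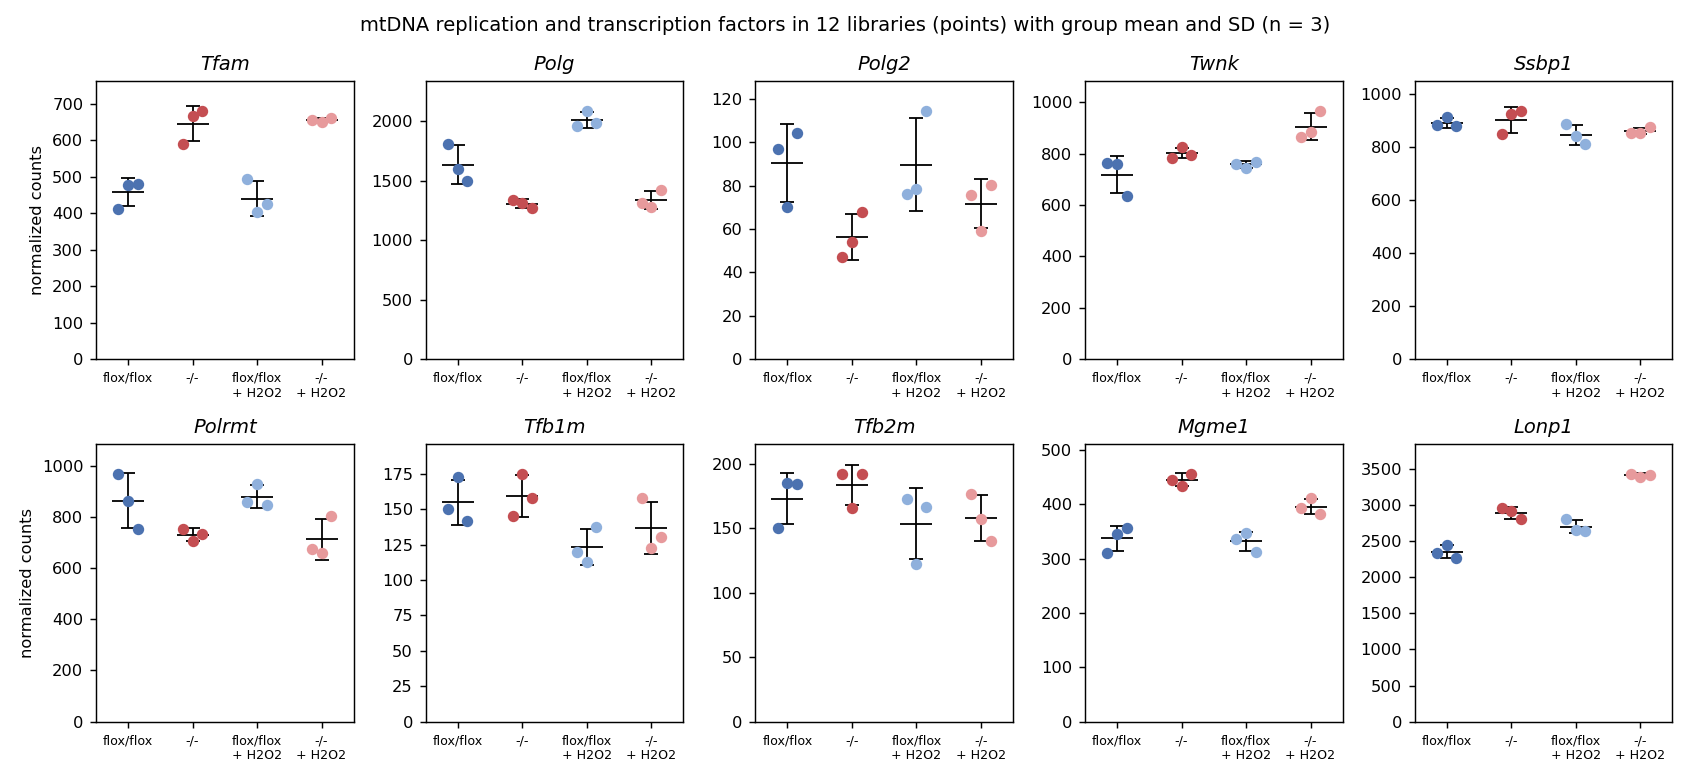
Normalized counts (y axes, linear, starting at 0) of the 10 genes in the 12 libraries, as points by group, with the mean and SD of 3 libraries as black bars. Tfam, Mgme1 and Lonp1 are higher and Polg and Polg2 lower in untreated TβRII-/- than in untreated TβRIIflox/flox cells without overlap, and Ssbp1 stays between 811 and 937 in all 12 libraries.

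Without treatment, RNA of Tfam, Mgme1 and Lonp1 rose and RNA of Polg, Polg2 and Polrmt fell in TβRII-/- cells compared to TβRIIflox/flox cells. Genes were called at an adjusted p under 0.05 in the quasi-likelihood test of edgeR, with p-values adjusted by Benjamini-Hochberg over all 12971 genes tested. The 6 of 10 members called compare with 64.7% of all genes tested, the 3 risen members with 33.3% and the 3 fallen ones with 31.4%, so the number called was near the background. The median size of the change was 0.27 on the log2 scale in the members and 0.34 over all genes. In 6 members the libraries of the genotypes did not overlap, as in 65.3% of all genes.

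Tfam had 412, 477 and 481 normalized counts in untreated TβRIIflox/flox cells and 590, 665 and 681 in untreated TβRII-/- cells. The lowest TβRII-/- library was above the highest TβRIIflox/flox library. The change was 0.50 on the log2 scale (SE 0.08, 1.41-fold, edgeR adjusted p = 3.24e-06), and it stayed between 0.43 and 0.56 under all 14 alternatives. The 5 annotated Tfam transcripts with at least 120 counts in total, the one used among them, had log2 ratios between 0.41 and 0.53. Their counts share reads wherever they overlap, so they are not separate measurements.

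The protease gene Lonp1 had 2334, 2444 and 2267 normalized counts without deletion and 2963, 2911 and 2801 with it. Its groups did not overlap, and the rise was 0.30 (SE 0.06, 1.23-fold, edgeR adjusted p = 2.51e-05). The transcript used for Lonp1 (ENSMUST00000233732) is annotated as a decay form, and the next Lonp1 transcript by count, a protein-coding one, had 97.4% as many counts with log2 ratios between 0.30 and 0.31 over the pair. Mgme1 had 310, 345 and 356 normalized counts in TβRIIflox/flox cells and 446, 434 and 457 in TβRII-/- cells. These groups did not overlap either, with a change of 0.40 (SE 0.08, 1.32-fold, edgeR adjusted p = 6.7e-05). The region of Mgme1 moved with it. The 963 other tested genes of chromosome 2 had a median change 0.29 above that of all genes, and the 24 nearest neighbours 0.34 above it, so the change of Mgme1 was close to that of its surroundings. The part of this shift in the Mgme1 result was not tested. Around Tfam and Lonp1 the neighbours' medians were within 0.04 of that of all genes.

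Polg had 1812, 1598 and 1496 normalized counts in untreated TβRIIflox/flox cells and 1342, 1309 and 1273 in untreated TβRII-/- cells. The lowest TβRIIflox/flox library was above all 3 TβRII-/- libraries. The fall was -0.32 on the log2 scale (SE 0.07, 0.80-fold, edgeR adjusted p = 7.7e-05). Its accessory subunit Polg2 had few counts, with 96.8, 70.1 and 104 normalized counts against 47.1, 54.2 and 68.0. The groups were apart by a small margin, and the change was -0.68 (SE 0.20, 0.626-fold, edgeR adjusted p = 0.00352). Polg2 was the 1 member that passed the study's limits of an unadjusted p under 0.01 and a fold change of 1.5, which 27.0% of all genes passed. On the Polg2 transcript with the second highest count the change was -0.50 and the call was lost (edgeR adjusted p = 0.075). The transcript used for Polg2 is annotated as a nonsense-mediated decay form, and 7.7% of it has copies of at least 95% identity elsewhere in GRCm39. The 24 neighbours of Polg2 had a median 0.22 below that of all genes.

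Polrmt had 969, 864 and 754 normalized counts in untreated TβRIIflox/flox cells and 754, 707 and 731 in untreated TβRII-/- cells. The highest TβRII-/- library met the lowest TβRIIflox/flox library. The change was -0.24 (SE 0.08, edgeR adjusted p = 0.0106), and without replicate 1 of untreated TβRIIflox/flox cells it was -0.15 and not called (edgeR adjusted p = 0.115). The transcript used for Polrmt is annotated as a retained-intron form. A protein-coding one, which shares reads with it, had 99.8% as many counts and a log2 ratio of -0.23. The 24 neighbours of Polrmt had a median 0.16 below that of all genes.

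The 4 members not called were the helicase Twnk, Ssbp1 and both Tfb genes. Twnk had 762, 759 and 633 against 784, 825 and 796 normalized counts. These libraries did not overlap, the difference was 0.16 (95% interval 0.02 to 0.30), and the edgeR adjusted p was 0.0523. It was under the threshold without replicate 1 or without replicate 2 of untreated TβRIIflox/flox cells (0.0274 and 0.0398) and with at least 10 counts required in every library (0.035). Without replicate 3 of untreated TβRIIflox/flox cells the difference was 0.07 (edgeR adjusted p = 0.422). Ssbp1 had 885, 914 and 879 against 848, 925 and 937 normalized counts. The groups overlapped throughout, and the interval of the difference ran from -0.11 to 0.14. The intervals of Tfb1m (-0.21 to 0.30) and Tfb2m (-0.17 to 0.34) were wider, at between 142 and 192 normalized counts per library in these 2 groups. Tfb2m can share reads with a stretch of chromosome 12 (GRCm39) that matches 2169 of its bases at 99.6% identity, and in Tfb1m 59.0% of the transcript overlaps Tiam2 on the opposite strand.

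**Figure D2:**
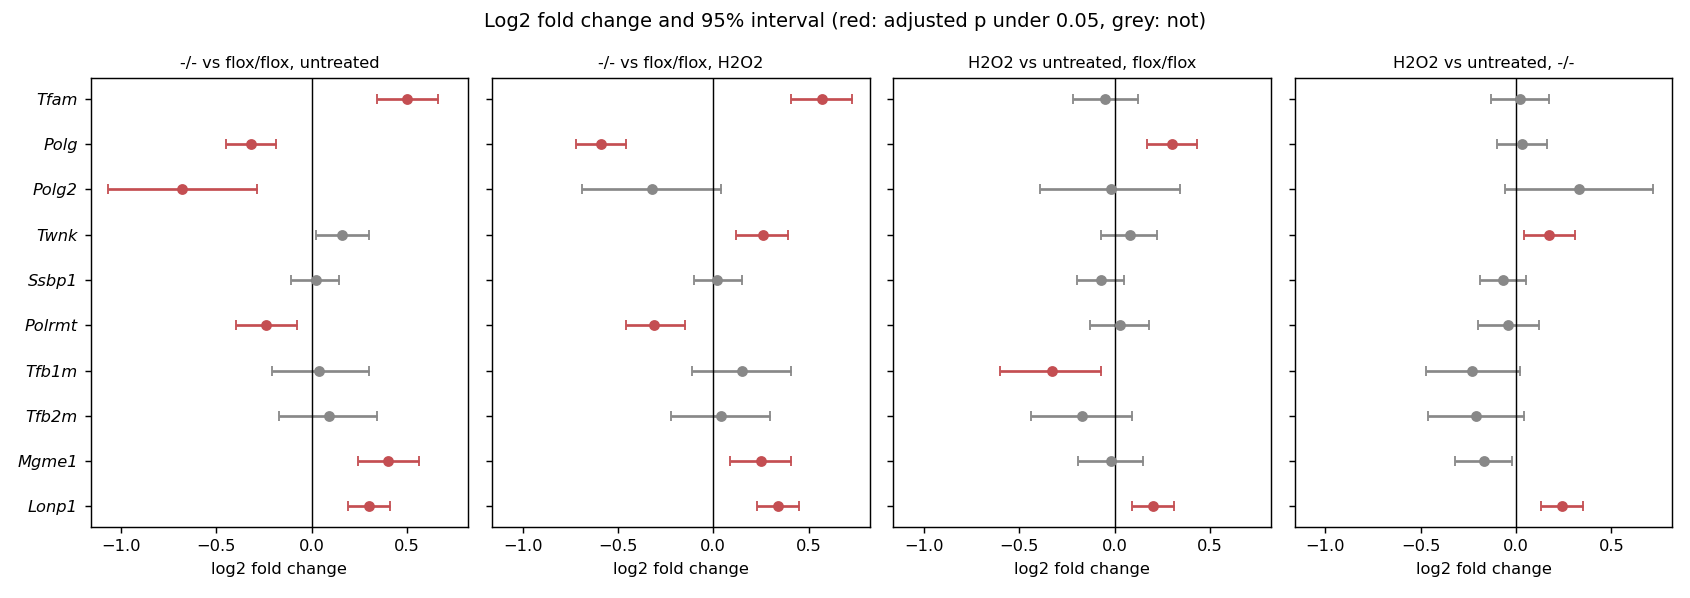
Log2 fold changes (x axes) of the 10 genes in 4 comparisons with 95% intervals as bars, red where the edgeR adjusted p was under 0.05. The genotype panels show Tfam, Mgme1 and Lonp1 to the right and Polg and Polrmt to the left of 0, and the H2O2 panels have 3 and 2 red points.

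After H2O2, 6 of 10 members differed between genotypes, against 66.4% of all genes tested. Tfam, Twnk, Mgme1 and Lonp1 were higher (35.1% of all genes were) and Polg and Polrmt lower (31.3%) in TβRII-/- cells. The median size of change was 0.28 against 0.35 over all genes, and the groups were apart in 6 members against 71.0% of all genes. Polg had 1963, 2088 and 1986 normalized counts in TβRIIflox/flox cells with H2O2 and 1316, 1275 and 1422 in TβRII-/- cells with H2O2. That gap was wide against the spread in either group. The change was -0.59 (SE 0.06, 0.664-fold, edgeR adjusted p = 1.53e-09), and Polg was the 1 member past the study's limits here, which 29.8% of all genes passed. Tfam had 494, 402 and 424 against 654, 650 and 661 normalized counts. Its groups did not overlap (0.57, SE 0.08, 1.49-fold, edgeR adjusted p = 2.62e-07).

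Lonp1 had 2799, 2658 and 2642 normalized counts in H2O2-treated TβRIIflox/flox cells and 3433, 3385 and 3413 in H2O2-treated TβRII-/- cells. Each TβRII-/- library was higher (0.34, SE 0.06, edgeR adjusted p = 3.45e-06). Twnk had 760, 744 and 769 against 864, 885 and 967 normalized counts, without overlap (0.26, SE 0.07, edgeR adjusted p = 0.00197). The other genes of chromosome 19 had a median 0.12 and the neighbours of Twnk a median 0.18 above that of all genes. Polrmt had 859, 929 and 846 against 676, 657 and 801 normalized counts and fell by 0.31 on the log2 scale (SE 0.08, edgeR adjusted p = 0.00123). Mgme1 had 336, 347 and 313 against 393, 411 and 383 normalized counts. Its libraries were apart (0.25, SE 0.08, edgeR adjusted p = 0.0069), its neighbours had a median 0.37 above that of all genes, and without replicate 3 of H2O2-treated TβRIIflox/flox cells the call was lost (0.18, edgeR adjusted p = 0.0852). Polg2 had 76.1, 78.5 and 115 against 75.7, 59.0 and 80.5 normalized counts, with overlap and an interval from -0.69 to 0.04. Ssbp1 again had a narrow interval around 0 (-0.10 to 0.15).

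Exposure to H2O2 in serum-free medium moved fewer members. These comparisons use the same untreated and treated libraries as the genotype comparisons and are not independent of them. In TβRIIflox/flox cells Polg and Lonp1 rose and Tfb1m fell, 3 of 10 members against 41.6% of all genes tested (21.0% rose and 20.5% fell), and 3 members had groups apart against 47.4%. None passed the study's limits, which 7.56% of all genes passed. Polg rose from between 1496 and 1812 to between 1963 and 2088 normalized counts, so that each treated library was above each untreated one (0.30, SE 0.06, 1.23-fold, edgeR adjusted p = 0.000394). Lonp1 rose from between 2267 and 2444 to between 2642 and 2799 (0.20, SE 0.06, edgeR adjusted p = 0.00476). Tfb1m, which had 150, 173 and 142 normalized counts before and 120, 113 and 138 after H2O2, was called at the edge of the threshold (-0.33, SE 0.13, edgeR adjusted p = 0.047). That call was lost in 11 of 14 alternatives, among them leaving out replicate 1 (-0.34) or 2 (-0.24) of the untreated or replicate 1 (-0.30) or 2 (-0.27) of the treated libraries. The interval for Tfam was -0.22 to 0.12.

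In TβRII-/- cells 2 of 10 members were called, against 39.6% of all genes, and both were higher after H2O2, as were 20.5% of all genes. The groups were apart in 3 members and in 52.1% of all genes. Lonp1 rose from between 2801 and 2963 to between 3385 and 3433 normalized counts (0.24, SE 0.06, 1.18-fold, edgeR adjusted p = 0.000967). Twnk rose from between 784 and 825 to between 864 and 967 (0.17, SE 0.07, edgeR adjusted p = 0.0471), and this call was lost in 11 of 14 alternatives. Among them were leaving out replicate 1 (0.16), 2 (0.19) or 3 (0.17) of the untreated or replicate 2 (0.19) or 3 (0.13) of the treated libraries, and the second Twnk transcript (-0.01). Mgme1 had no overlap between groups and was lower after H2O2 by 0.17 on the log2 scale without passing the test (edgeR adjusted p = 0.0859), which it passed in a fit of only the groups compared (-0.18, edgeR adjusted p = 0.043). Polg stayed between 1273 and 1422 normalized counts in all 6 TβRII-/- libraries, with an interval from -0.10 to 0.16. None passed the study's limits, against 7.77% of all genes.

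Whether H2O2 acted differently in the genotypes was tested as an interaction. By edgeR 0 of 10 members were called, against 10.2% of all genes, and DESeq2 also called 0. None passed the study's limits, against 2.75% of all genes. At an unadjusted p under 0.05 edgeR had 1 member, Polg, against 23.7% of all genes. Its H2O2 effect was 0.27 lower on the log2 scale in TβRII-/- than in TβRIIflox/flox cells (-0.27, SE 0.09, unadjusted p = 0.00679, edgeR adjusted p = 0.0596). Leaving out 1 library brought Polg past the threshold in 3 cases, with adjusted p-values of 0.00348 without replicate 1 of untreated TβRIIflox/flox cells, 0.0467 without replicate 1 of H2O2-treated TβRIIflox/flox cells and 0.0426 without replicate 3 of H2O2-treated TβRII-/- cells. For Lonp1, which was called in both genotypes, the difference was 0.04 (interval -0.12 to 0.19).

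Ratios within a library do not depend on how libraries are scaled to each other. The ratio of Tfam to Polg counts was 0.228, 0.299 and 0.321 in untreated TβRIIflox/flox cells and 0.440, 0.508 and 0.535 in untreated TβRII-/- cells. With H2O2 it was 0.252, 0.192 and 0.214 against 0.497, 0.510 and 0.465. All 6 TβRII-/- libraries were thus above all 6 TβRIIflox/flox libraries. The ratio of Lonp1 to Polg showed the same separation, at 1.29, 1.53 and 1.52 against 2.21, 2.22 and 2.20 without and 1.43, 1.27 and 1.33 against 2.61, 2.66 and 2.40 with H2O2. The ratio of Tfam to Polrmt was also apart by genotype, with means of 0.539 ± 0.11 and 0.885 ± 0.089 (SD, n = 3) without H2O2. These ratios set members called higher against members called lower in the same libraries. Their separation follows largely from those calls and is a description. How often other pairs of genes separate as well was not tested. The ratio of Polg2 to Polg, subunits of 1 enzyme, overlapped between genotypes, at 0.0557 ± 0.013 and 0.0433 ± 0.0093 without H2O2. With H2O2 it overlapped too and lay in the other order, at 0.0447 ± 0.011 in TβRIIflox/flox and 0.0535 ± 0.0063 in TβRII-/- cells. Polg2 had between 45 and 100 raw counts per library, so this overlap does not show that the subunits moved together.

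**Figure D3:**
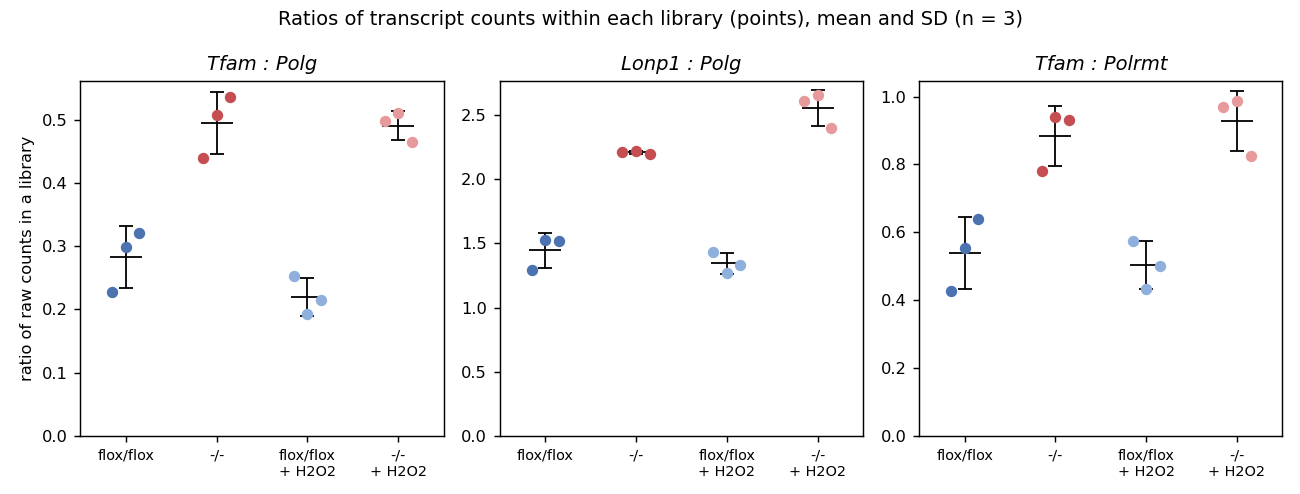
Ratios of raw transcript counts within each library (y axes, linear from 0) for Tfam to Polg, Lonp1 to Polg and Tfam to Polrmt, as points by group with mean and SD of 3 libraries. In the Tfam to Polg panel the TβRII-/- libraries lie between 0.440 and 0.535 and the TβRIIflox/flox libraries between 0.192 and 0.321.

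Polg has 18 annotated transcripts with at least 120 counts in total, and their counts share reads wherever they overlap. All 18 were lower in TβRII-/- cells in both media, with log2 ratios of mean normalized counts from -1.02 to -0.07 without and from -1.0 to -0.35 with H2O2. The lowest values belonged to Polg-216 (-1.02) and Polg-202 (-1.01), which both lie within the first 2 of the 23 exons of Polg-201, the transcript used above, and the intron between them. Polg-216 had 223, 153 and 193 normalized counts in untreated TβRIIflox/flox cells and 137, 70.7 and 72.8 in untreated TβRII-/- cells. With H2O2 it had 200.9, 184 and 222 against 102, 92.8 and 110. The groups were apart in both media. Those of Polg-202 overlapped without H2O2, where 1 TβRII-/- library (98.3) was above 1 TβRIIflox/flox library (85.7), and were apart with H2O2. Polg-217 and Polg-206, which begin at exon 21 or later, had ratios of -0.07 and -0.09 without and -0.45 and -0.51 with H2O2. These values are a description, and no test was run on single transcripts. Fanci, on the opposite strand, overlaps 10.5% of the Polg-201 transcript at its 3′ side and had log2 fold changes of 0.11 without and -0.10 with H2O2.

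**Figure D4:**
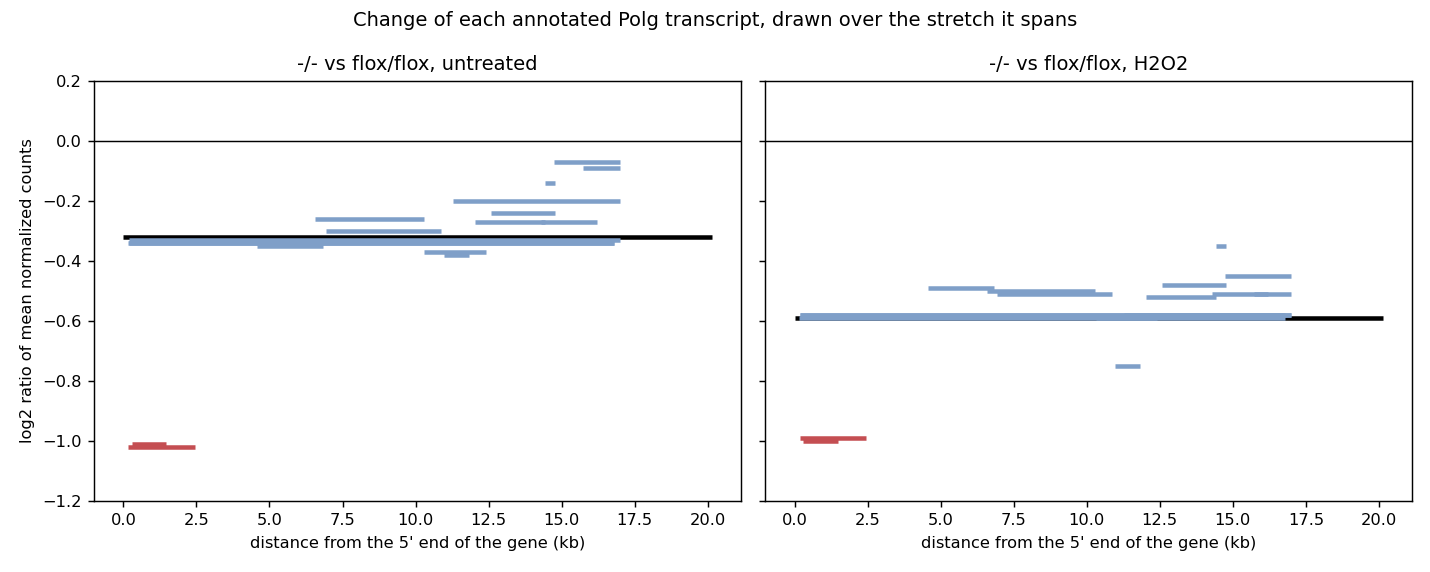
Log2 ratio of mean normalized counts, TβRII-/- to TβRIIflox/flox (y axes), of the 18 Polg transcripts, drawn over the stretch each spans as distance from the 5′ end of the gene (x axes, kb), untreated on the left and with H2O2 on the right. Polg-201 is black, and Polg-216 and Polg-202, in red within the first 2.45 kb, lie near -1 in both panels.

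The genes around the set in the same pathways were read from lists, against the 33.3% of all genes tested that rose and the 31.4% that fell between untreated genotypes. Of 11 other genes of mtDNA replication and repair, 5 rose and 4 fell in untreated TβRII-/- cells. Endog, which encodes a mitochondrial endonuclease, rose by 0.91 on the log2 scale at few counts (edgeR adjusted p = 0.00642). Mpv17, a protein of the inner membrane linked to mtDNA maintenance, went from 717 ± 36.7 to 1241 ± 19.9 normalized counts (SD, n = 3; log2 fold change 0.79, edgeR adjusted p = 8.67e-13). Lig3, the DNA ligase of mitochondria, went from 1146 ± 51.3 to 667 ± 31.4 (-0.78, edgeR adjusted p = 4.09e-12), and the exonuclease gene Exog fell by 0.58 on the log2 scale. Of 7 other transcription genes 1 was called, Mrpl12, a ribosomal protein reported to bind Polrmt (0.34, edgeR adjusted p = 0.000119). Of 16 genes of mitochondrial RNA processing and decay 5 rose, led by Hsd17b10 (0.72), a subunit of mitochondrial RNase P, and Fastk (0.48), an RNA-binding protein. In the same list 3 fell, led by the oligoribonuclease gene Rexo2 (-0.51) and Fastkd1 (-0.44), a relative of Fastk.

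Of 11 genes of dNTP supply 4 rose and 2 fell. Tk2, the mitochondrial thymidine kinase, went from 344 ± 0.506 to 594 ± 26.6 normalized counts (0.79, edgeR adjusted p = 2.85e-10), and Rrm2, a subunit of ribonucleotide reductase, rose by 0.54 on the log2 scale. Samhd1, which degrades dNTPs, went from 4194 ± 245 to 2046 ± 84.1 (-1.04, edgeR adjusted p = 7.85e-16). Abat, a transaminase gene, fell from 13.3 ± 5.95 to 2.01 ± 1.09 normalized counts (edgeR adjusted p = 0.000908), too few for a fold change to be given. Among 10 regulators of nuclear genes for mitochondria 6 rose and 1 fell. The coactivator gene Ppargc1b had 35.6 ± 5.54 against 71.7 ± 15.8 normalized counts (1.01, edgeR adjusted p = 0.000117), Ppargc1a rose by 2.30 on the log2 scale, and the related Pprc1 fell by 0.41. Of 13 mitochondrial proteases and chaperones other than Lonp1, 5 rose and 3 fell. Dnaja3, a mitochondrial DnaJ chaperone, rose by 0.89 and the chaperone Trap1 by 0.65, whereas Spg7 and Afg3l1, which encode subunits of inner membrane proteases, had log2 fold changes of -0.34 and -0.23. With between 7 and 16 genes per list these counts are a description, and nothing particular to a list is read from them. The median changes of the lists lay between -0.05 and 0.20, against 0.01 over all genes.

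Between H2O2-treated genotypes 35.1% of all genes were higher and 31.3% lower in TβRII-/- cells. The replication list had 4 higher, led by Mpv17 (1.01) and Endog (0.99), and 2 lower, Lig3 (-0.70) and the topoisomerase gene Top3a (-0.40). The transcription list had Mrpl12 higher (0.38) and Mterf2, of the mitochondrial termination factor family, lower (-0.46). In RNA processing 4 were higher, led by Hsd17b10 (0.80) and Fastk (0.43), and 5 lower, led by Rexo2 (-0.44) and Pnpt1 (-0.41), an RNA phosphorylase. Of the dNTP genes 6 were higher, led by Tk2 (0.93) and the deoxyguanosine kinase gene Dguok (0.49), and 1 lower, Samhd1 (-0.71). Of the regulators 5 were higher, led by Ppargc1a (3.09) and Ppargc1b (0.68), and 1 lower, Pprc1 (-0.41). The proteases and chaperones had 4 higher, led by Dnaja3 (1.05) and Trap1 (0.63), and 4 lower, led by Spg7 (-0.65) and the protease gene Htra2 (-0.59).

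After H2O2 in TβRIIflox/flox cells, where 21.0% of all genes rose and 20.5% fell, the list of dNTP supply had 6 genes lower and 1 higher of 11. Samhd1 (-0.50) and Rrm2 (-0.48) fell most, and the carrier gene Slc25a36 rose (0.31). The proteases and chaperones had 5 lower and 1 higher of 13, with the chaperonin pair Hspe1 and Hspd1 at -0.30 and -0.27 and Spg7 at 0.22. In the remaining lists of nuclear genes between 0 and 2 genes rose and between 1 and 2 fell. The risen ones with the largest changes were Primpol (0.23), Dna2 (0.18), Fastkd2 (0.42), Ppargc1b (0.92) and Gabpb2 (0.15). The fallen ones were Lig3 (-0.19), Fen1 (-0.17), Mrpl12 (-0.40), Rexo2 (-0.60), Grsf1 (-0.22), Myc (-0.40) and Yy1 (-0.22).

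In TβRII-/- cells, where 20.5% of all genes rose with H2O2 and 19.1% fell, the dNTP list had 3 lower, led by Rrm2 (-0.56) and its partner subunit Rrm1 (-0.49), and 2 higher, Slc25a36 (0.40) and Tk2 (0.24). The proteases and chaperones had 5 lower, led by Htra2 (-0.66) and Hspd1 (-0.33), and 0 higher. In the remaining lists of nuclear genes between 0 and 3 rose and between 0 and 4 fell. Those with the largest rises were Primpol (0.48), Mpv17 (0.17), Ppargc1b (0.59) and Ppargc1a (0.45). Those with the largest falls were Mrpl12 (-0.36), Rexo2 (-0.53), Trmt10c (-0.44), Myc (-0.20) and Nrf1 (-0.20).

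**Figure D5:**
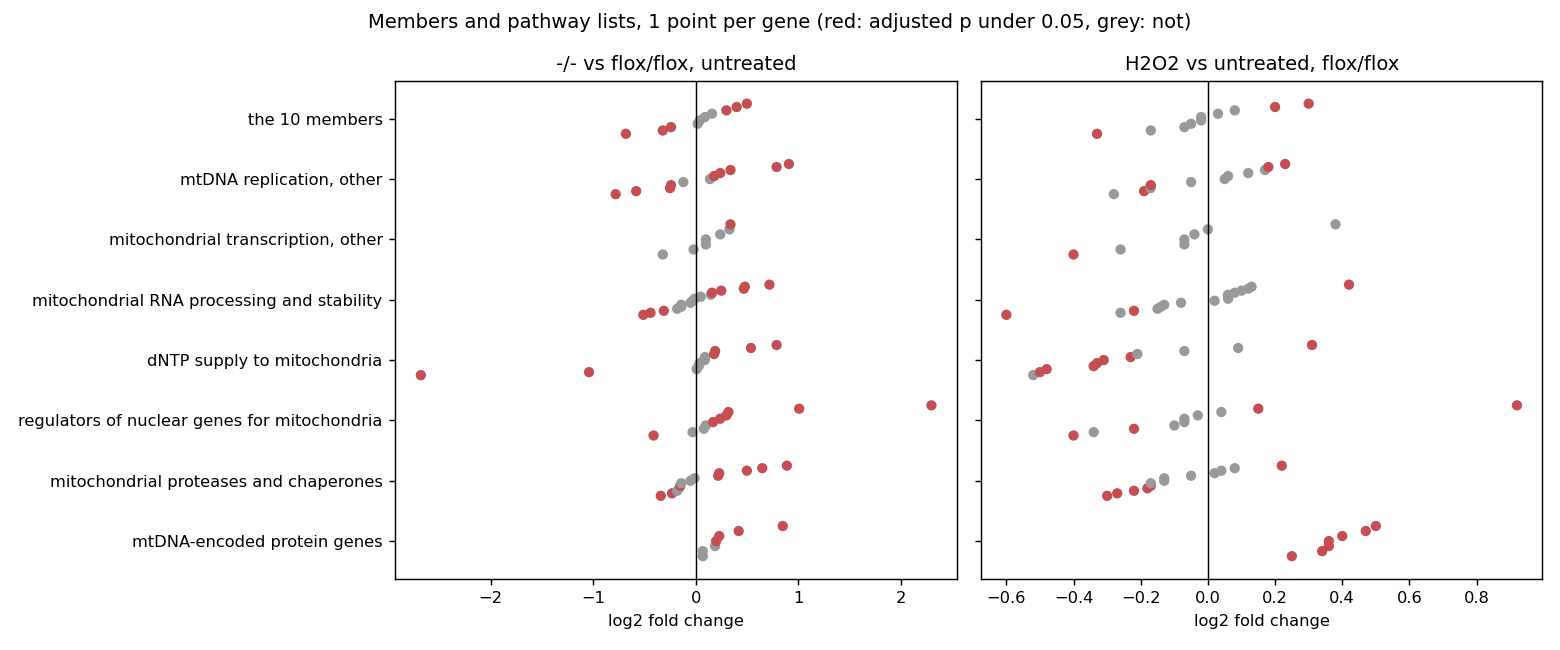
Log2 fold changes (x axes) of the 10 members and of the genes in 7 pathway lists, 1 point per gene, red where the edgeR adjusted p was under 0.05, for genotype without treatment (left) and for H2O2 in TβRIIflox/flox cells (right). Members range from -0.68 to 0.50 on the left, and all 7 countable mtDNA-encoded genes are red and right of 0 on the right.

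The RNAs that these proteins transcribe were read from the same libraries, which were made from polyadenylated RNA. Of 13 protein genes of mtDNA 7 had enough counts to test. Why the rest had too few was not tested, and they are not read as low in RNA. In untreated cells 4 of the 7 tested genes were higher in TβRII-/- cells and 0 lower, against 33.3% and 31.4% of all genes tested. The higher ones were led by mt-Nd6, the 1 protein gene on the other strand of mtDNA (0.85, edgeR adjusted p = 6.28e-08), and by mt-Co1 (0.42, edgeR adjusted p = 0.000349). The library kit keeps strand, but whether the counting used it is not given in the sources used here, so whether mt-Nd6 counts hold reads of the opposite strand was not tested. With H2O2 the calls in this list ran the other way, with 0 genes higher and 3 lower in TβRII-/- cells, mt-Cytb (-0.41, edgeR adjusted p = 0.000399), mt-Nd5 (-0.33) and mt-Nd4 (-0.28). Over all genes tested 35.1% were higher and 31.3% lower there. As genes of 1 small genome the 7 are not separate observations of a shift. The median change of the 7 genes was 0.20 without and -0.20 with H2O2. All 7 rose with H2O2 in TβRIIflox/flox cells, led by mt-Nd6 (0.50) and mt-Nd2 (0.47), whereas in TβRII-/- cells mt-Nd2 rose (0.22) and mt-Co1 fell (-0.27). Over all genes 21.0% rose with H2O2 in TβRIIflox/flox cells, and 20.5% rose and 19.1% fell in TβRII-/- cells. The share of the 13 genes, including those with too few counts to test, was taken in the counts on the transcripts used, 1 per gene. It was 4.80% ± 0.306 in untreated TβRIIflox/flox and 5.99% ± 0.517 in untreated TβRII-/- cells (SD, n = 3). With H2O2 it was 5.997% ± 0.625 and 5.70% ± 0.504. Two-sided exact permutation tests gave p = 0.10 for genotype without H2O2 and for H2O2 in TβRIIflox/flox cells, the smallest value that 3 against 3 libraries allow, and 0.60 and 0.50 for the other comparisons.

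Among 10294 protein-coding genes with a mean of at least 100 normalized counts, those whose log2 levels followed Tfam most closely over the 12 libraries were Mea1 (Pearson's r = 0.984), Chmp2a (0.982), Ciao1 (0.982), Tnfaip8 (0.980) and Gtf2h3 (0.980). Polg was followed most closely by Ptprk (0.995), Ly75 (0.992), Sel1l (0.990), Fads2 (0.986) and Chd4 (0.986). Ptprk had log2 fold changes of -0.34 and -0.61 between genotypes and 0.30 and 0.03 with H2O2, next to -0.32, -0.59, 0.30 and 0.03 in Polg. The coefficients are a description over libraries of 4 groups that all genes share, and carry no test.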

How the data were processed

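RNA of 12 libraries was sequenced by the authors from libraries of a kit that keeps strand (TruSeq Stranded mRNA, by the study's methods), trimmed with fastp, aligned with STAR (GRCm38.p6, GENCODE M23) and assigned with featureCounts. The deposited values are raw counts. They are given for transcripts and not, as the design assumed, for genes, and reads shared by transcripts of a gene are counted on each, so 1 transcript with the highest total stood for each gene. Of 106332 transcripts 104820 were matched by Ensembl identifier to GENCODE M39. The unmatched ones held between 1.22% and 1.28% of the counts and were left out. Whether featureCounts used strand, and how it treated reads on several features, is not given in the sources used here.

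Groups came from the sample labels. The title of replicate 3 of untreated TβRIIflox/flox cells is written unlike those of the other replicates. Libraries were normalized by TMM, filtered with filterByExpr and fitted in edgeR 4.0.16 (R 4.3.3, limma 3.58.1) with a mean per group over all 12 libraries. glmQLFTest gave the contrasts, and p-values were adjusted by the Benjamini-Hochberg method over 12971 genes. Normalized counts are scaled to an effective library of 17351823 counts, and 95% intervals are 1.96 SE on each side. The study's methods speak in general of 3 or more independent experiments or biological replicates in vitro. The labels do not say which separate cultures these libraries came from, so p-values measure the spread between libraries, part of which may be technical. Tests were tried on simulated counts. Alternatives were DESeq2 1.42.0, its size factors in edgeR, other count filters, a replicate block, sums over transcripts, the second transcript, only the groups compared, and leaving out each library. Replicates differed by more than sampling noise. Copies were searched with BLAST 2.17.0+, and tables and plots were made with Python 3.11.15 and matplotlib 3.10.9. Gene coordinates are those of RefSeq on GRCm38.p6.

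The members, the pathway lists, the motifs, the markers and the tests were chosen with earlier results of these data known. The text names the 10 members, up to 2 risen and 2 fallen genes with the largest change per list and contrast, and the 5 genes most like Tfam and Polg by Pearson's r.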

Additional observations from a re-analysis of the deposited data

Results flagged for a closer look

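No member had an H2O2 effect that passed the test of a difference between genotypes, and groups of 3 libraries were too small for a test of outlying libraries. In the pathway lists 8 named genes were picked out because the H2O2 effect differed between genotypes by the interaction test (edgeR adjusted p under 0.05, which 10.2% of all genes tested passed). Given as the log2 effect in TβRII-/- cells minus that in TβRIIflox/flox cells, the differences were -0.52 for mt-Co1 and -0.62 for mt-Nd6 among the mtDNA-encoded genes, of which 5 of 7 passed. They were -0.37 for Elac2, the nuclease that trims mitochondrial tRNA ends, and -0.27 for Pnpt1, an RNA phosphorylase. Among proteases they were -0.44 for Htra2 and -0.31 for Spg7. Samhd1 had a difference of 0.32 and Ppargc1a of 0.80. Polg, at -0.27 and an adjusted p of 0.0596, lay just outside the threshold.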

How the results depend on the processing

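Of 750 values of the members under the alternatives, 671 kept the direction and the side of the threshold, 24 lost the call, 7 gained one and 48 changed sign. The changes of sign were in values not called, except that of Twnk for H2O2 in TβRII-/- cells. Tfam, Polg, Lonp1 and Polrmt kept every genotype call except Polrmt without replicate 1 of untreated TβRIIflox/flox cells. With the study's limits, 1 member was called between untreated genotypes, 1 between treated genotypes, and 0 for H2O2 in either genotype. For H2O2 in TβRII-/- cells the count went from 2 to 1 with DESeq2, with its size factors, without a filter, with sums over transcripts and with the second transcript, was 3 with only the groups compared, where Mgme1 was added, and lay between 1 and 2 without single libraries. The interaction count lay between 0 and 1 without single libraries. The percentage of counts from mtDNA-encoded genes differed by 0.373 percentage points between untreated genotypes and by 0.408 with H2O2 in TβRIIflox/flox cells when all transcripts were summed, which enlarges the total. Libraries then lay between 1.389% and 1.568% in untreated TβRIIflox/flox and between 1.636% and 1.947% in untreated TβRII-/- cells. Same-numbered libraries did not deviate together (correlations between -0.09 and 0.059). With the replicate number as a block the count for H2O2 in TβRII-/- cells was 1, and Tfb1m lost its call in TβRIIflox/flox cells (adjusted p = 0.0577).

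The changes of sign, on the log2 scale, were these. With sums over transcripts, Tfb1m between untreated genotypes was -0.03, Tfb2m between treated genotypes -0.06 and the interaction of Ssbp1 0.00. With the second transcript, Tfb1m between untreated genotypes was -0.19, Tfb2m between treated genotypes -0.03, Twnk -0.04 and -0.01 for H2O2 in TβRIIflox/flox and TβRII-/- cells, and Tfb1m 0.09 for H2O2 in TβRII-/- cells. The interaction of Ssbp1 was -0.01 with DESeq2 and with its size factors and 0.00 with at least 10 counts in every library. Without single libraries, untreated genotypes differed by between -0.01 and 0.06 in Ssbp1, -0.03 and 0.12 in Tfb1m and -0.01 and 0.15 in Tfb2m, and treated genotypes by between -0.04 and 0.03 in Ssbp1 and -0.13 and 0.12 in Tfb2m. The H2O2 effect in TβRIIflox/flox cells lay between -0.14 and 0.01 in Tfam, -0.22 and 0.10 in Polg2, 0.00 and 0.13 in Twnk, -0.06 and 0.13 in Polrmt and -0.07 and 0.03 in Mgme1. In TβRII-/- cells it lay between -0.04 and 0.06 in Tfam, -0.01 and 0.07 in Polg and -0.13 and 0.01 in Polrmt. The interaction lay between -0.01 and 0.14 in Tfam, -0.05 and 0.03 in Ssbp1, -0.01 and 0.19 in Tfb1m, -0.21 and 0.03 in Tfb2m and -0.02 and 0.06 in Lonp1. The causes were not tested. Counts near 150 (Tfb1m, Tfb2m) or under 115 (Polg2) limit what could be seen in those genes.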
